A study of Rattus norvegicus with 4 samples.

Results

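The 9 genes described here encode adrenergic receptors and the proteins that make and break down the cyclic nucleotides behind them in heart muscle. They were chosen by symbol, with earlier results of these data known, and all 9 were found among the 18699 genes of the expression table. They comprise the receptor genes Adrb1, Adra1a and Adra1b, the G protein gene Gnas, the adenylyl cyclase genes Adcy5 and Adcy6, and the phosphodiesterase genes Pde3a, Pde4d and Pde5a. RNA came from primary ventricular myocytes of wild-type Sprague Dawley rats aged 1 to 3 days. All cultures grew in 15% fetal bovine serum with 0.1 mM 5-bromo-2-deoxyuridine, added against the growth of other heart cells. The vehicle group had 2 libraries and the carfilzomib group, given 1 µM of this proteasome inhibitor for 24 h, also had 2. Separate cultures or litters are not named for the 2 libraries of 1 group. Every p-value here sets the group difference against the spread between these libraries, partly pooled over genes. That spread may be technical.

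Noradrenaline and adrenaline act on the heart through these receptors. The beta-1 receptor couples to the stimulatory G protein, whose alpha subunit Gnas encodes, and this switches on the adenylyl cyclases of heart muscle, mainly types 5 and 6, which make cyclic AMP. Cyclic AMP activates protein kinase A, which phosphorylates calcium handling and sarcomere proteins so that the heart beats faster and harder, and phosphodiesterases end the signal by hydrolysing the nucleotide. The alpha-1 receptors couple instead to Gq and phospholipase C, a route known for its part in hypertrophic growth of neonatal myocytes.

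The libraries held 18655450 to 18884333 rounded counts. Of 10 cardiomyocyte markers all fell with carfilzomib, by log2 fold changes from -3.79 for Myh6, the alpha myosin heavy chain, to -0.36 for Tnnt2, troponin T. Myh6 was at 10018 and 9621 CPM (counts scaled to library size and TMM factors) with vehicle and at 714 and 709 CPM with carfilzomib. Tnnt2 was at 3342 and 3342 against 2723 and 2501 CPM. The estimated counts of Myh6 carry decimals, so some of its reads may have been shared out between similar genes. Col1a1, a collagen gene of fibroblasts, stood at 19415 and 19926 CPM with vehicle and at 11155 and 10590 CPM with carfilzomib, so the cultures also held RNA of cells other than myocytes. Of 8 macrophage markers 3, C1qa, C1qb and Cd163, were below 1 CPM in every library, while the most abundant with vehicle, Cd68, was at 19.7 and 21.8 CPM there and at 10.1 and 9.48 CPM with carfilzomib.

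All 9 genes changed, 7 falling and 2 rising, at an adjusted p under 0.05 in edgeR's quasi-likelihood test with Benjamini-Hochberg adjustment. That test called 60.7% of the 14519 genes tested, 30.6% higher and 30.1% lower. In all 9 genes the carfilzomib libraries lay on 1 side of both vehicle libraries, as they did for 79.9% of tested genes. The median log2 fold change, carfilzomib over vehicle, was -0.54 over the 9 genes and 0.00 over all tested genes. TMM scaling is built to centre most genes on no change. The falls were led by Pde3a and Adrb1, and the rises were those of Adra1a and Pde4d. In bulk RNA, fewer cells of a type and less RNA per cell cannot be told apart.

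**Figure D1:**
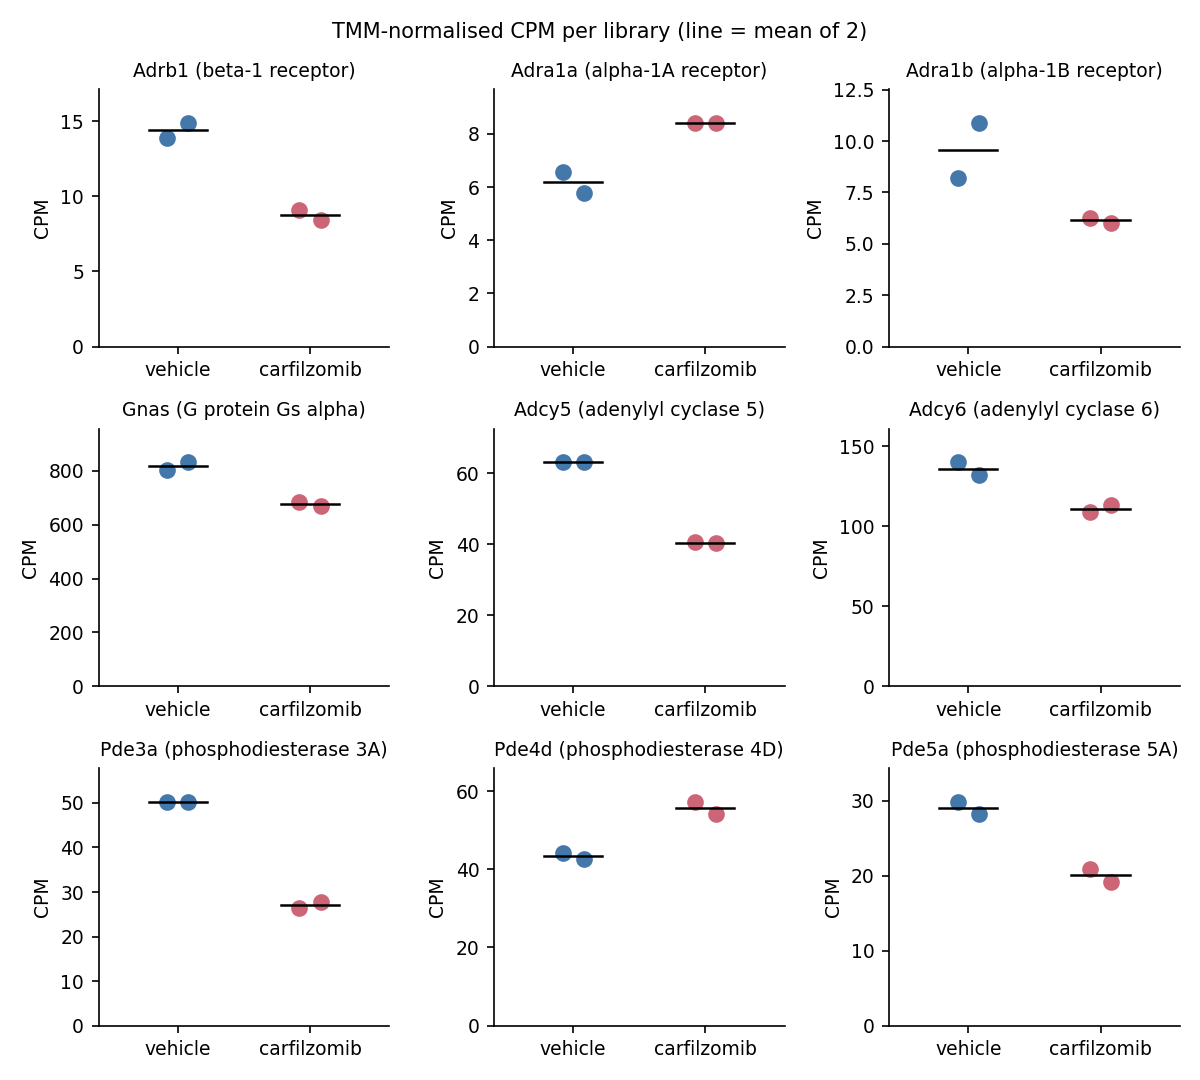
CPM of each of the 9 genes (vertical axes, starting at 0) in the 2 vehicle libraries (blue points) and the 2 carfilzomib libraries (red points), with a line at the mean of each group. In every panel the red points lie on 1 side of the blue ones, above them for Adra1a and Pde4d and below them for the other 7.

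Promoter sequences were available for 7 of the 9 genes in a RefSeq-based table of the build GRCr8, as 13 windows that run from 250 bases before a gene's start to 50 after it. Adra1a and Adcy6 had no entry. The windows are shown for 3 genes, namely the 2 with the largest falls, Adrb1 and Pde3a, and Pde4d, which rose. The search covered both strands. None of the 13 windows held the full cAMP response element TGACGTCA, the site bound by CREB, which 1.83% of all 33469 windows in the table held. Its core TGACG, which is also part of the full element, was found in 4 of the 13 windows and in 21.2% of all windows. Those 4 were the Adrb1 window, 1 of the 3 Gnas windows and 2 of the 5 Pde4d windows. Of the Pde4d windows only these 2 are shown, picked because they held the core. The core of the antioxidant response element, TGACNNNGC, was in 0 of the 13 windows and in 12.1% of all windows, and the TATA box TATAAA was in 1 of the 13, a Gnas window, against 14.2%. A match is a run of letters and not a measured binding site. Capitals mark the core TGACG on either strand. The windows lie on the + strand at chr1:265776853-265777152 (Adrb1), chr4:175904026-175904325 (Pde3a), chr2:42592499-42592798 (Pde4d, start 3 of 5 by position) and chr2:42767367-42767666 (Pde4d, start 4).
Adrb1: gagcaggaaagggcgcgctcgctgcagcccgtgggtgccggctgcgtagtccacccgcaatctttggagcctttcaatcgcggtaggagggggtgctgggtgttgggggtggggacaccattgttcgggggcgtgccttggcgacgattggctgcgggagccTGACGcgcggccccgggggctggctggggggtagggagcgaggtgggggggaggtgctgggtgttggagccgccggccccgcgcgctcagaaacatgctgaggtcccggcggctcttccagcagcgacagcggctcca
Pde3a: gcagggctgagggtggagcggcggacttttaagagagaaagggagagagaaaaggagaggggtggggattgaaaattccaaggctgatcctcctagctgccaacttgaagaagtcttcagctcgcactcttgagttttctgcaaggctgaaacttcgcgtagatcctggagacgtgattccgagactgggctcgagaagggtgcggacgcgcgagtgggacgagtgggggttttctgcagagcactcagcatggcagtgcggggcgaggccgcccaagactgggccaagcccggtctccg
Pde4d, start 3: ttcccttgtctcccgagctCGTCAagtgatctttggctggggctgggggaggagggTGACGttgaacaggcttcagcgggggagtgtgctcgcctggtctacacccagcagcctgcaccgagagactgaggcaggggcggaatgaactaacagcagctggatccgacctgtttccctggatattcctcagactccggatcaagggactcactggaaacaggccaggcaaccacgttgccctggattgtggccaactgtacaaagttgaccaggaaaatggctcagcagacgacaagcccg
Pde4d, start 4: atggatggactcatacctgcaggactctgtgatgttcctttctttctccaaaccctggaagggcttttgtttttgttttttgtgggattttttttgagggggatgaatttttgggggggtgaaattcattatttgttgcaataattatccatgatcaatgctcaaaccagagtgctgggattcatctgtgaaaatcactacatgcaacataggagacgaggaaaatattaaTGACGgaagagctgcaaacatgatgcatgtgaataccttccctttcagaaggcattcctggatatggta
The core began at position -88 from the start of Adrb1, at -231 and -194 in the window of Pde4d start 3 and at -19 in that of start 4. The counts are per gene, so they do not show which start of Pde4d or Gnas was in use.

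Among the receptors, Adrb1 fell and the alpha-1 genes moved in opposite directions, though neither alpha-1 call held under every alternative. Adrb1 (gene ID 24925), the main beta receptor of ventricular muscle, was at 13.9 and 14.9 CPM with vehicle and at 9.12 and 8.42 CPM with carfilzomib. Both treated libraries were lower and the groups did not overlap. Its mean fell from 14.4 ± 0.70 to 8.77 ± 0.492 CPM (SD, n = 2 libraries each), a log2 fold change of -0.71 ± 0.11 (SE) with an edgeR adjusted p of 4.95e-05. Of all tested genes, 13.3% had a lower log2 fold change.

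Adra1b (gene ID 24173), the alpha-1B receptor, was at 8.19 and 10.9 CPM with vehicle and at 6.24 and 6.04 CPM with carfilzomib. The vehicle libraries lay further apart than the treated ones, and vehicle replicate 2 was the highest of the 4. The log2 fold change was -0.63 ± 0.15 (SE), at an edgeR adjusted p of 0.00193. Without vehicle replicate 2 it was -0.42 with an edgeR adjusted p of 0.0502, while the other alternatives gave adjusted p from 6.81e-04 to 0.0302.

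Adra1a (gene ID 29412), the alpha-1A receptor, was at 6.57 and 5.79 CPM with vehicle and at 8.39 and 8.42 CPM with carfilzomib. The treated libraries nearly coincided and both lay above the vehicle libraries. The log2 fold change was 0.44 ± 0.13 (SE), at an edgeR adjusted p of 0.0103. These values rest on 107 to 160 counts per library. DESeq2, which called 44.7% of the tested genes, gave an adjusted p of 0.147, and edgeR gave 0.0744 without vehicle replicate 2 and 0.0529 without carfilzomib replicate 2. Over all alternatives the adjusted p of Adra1a lay between 0.0064 and 0.147.

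Levels of different genes were compared per length, as the deposited FPKM (fragments scaled to a length and library size). How that length was set is not given. Adra1a had 1.57 and 1.29 FPKM at 122 and 107 counts with vehicle, and 2.09 and 2.14 FPKM at 160 and 159 counts with carfilzomib. Its FPKM thus did not keep a fixed ratio to its counts. Its log2 fold change was 0.54 by limma on log2(FPKM + 0.1) and 0.44 by edgeR on counts, so its ratios and shares carry this difference. The FPKM of Adra1a was 0.474 and 0.295 of that of Adra1b in the vehicle libraries, and 0.81 and 0.856 of it in the carfilzomib libraries. Adra1b was thus 2.11 and 3.4 times as abundant as Adra1a with vehicle and 1.23 and 1.17 times as abundant with carfilzomib, with no overlap. The FPKM ratio of Adrb1 to Adra1b was 3.07 and 2.48 with vehicle and 2.64 and 2.52 with carfilzomib, and there the groups overlapped. Differences in these ratios were not tested.

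Over the 9 adrenergic receptor genes of the rat, the summed FPKM was 19.28 and 20.92 with vehicle and 15.16 and 13.66 with carfilzomib. Adrb1 made up 52.7% and 51.9% of that sum with vehicle and 45% and 46.1% with carfilzomib. The share of Adra1a was 8.14% and 6.17% with vehicle against 13.8% and 15.7% with carfilzomib. Shares of Adra1b, at 17.2% and 20.9% against 17% and 18.3%, overlapped. Adrb1 was the most abundant adrenergic receptor transcript per length in each of the 4 libraries.

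The other 6 receptor genes were low. Of them 4 were tested, 2 fell and 2 missed the threshold (median log2 fold change -0.54). DESeq2 called 0 of the 4, with 2 at an unadjusted p under 0.05. Adra1d and Adra2a, chosen after their values were seen, were the 2 that fell, with log2 fold changes of -0.97 and -0.86.

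Gnas (gene ID 24896), the stimulatory G protein alpha subunit, was the most abundant of the 9 genes and fell by a small amount. It was at 804 and 833 CPM with vehicle and at 684 and 670 CPM with carfilzomib. Both treated libraries were lower by more than the spread within either group, which was 818 ± 20.6 against 677 ± 9.75 CPM (SD, n = 2). The log2 fold change was -0.27 ± 0.04 (SE), at an edgeR adjusted p of 2.46e-05. Per length it stood at 689.5 and 711.6 FPKM with vehicle, and its FPKM was 29.1 and 31.8 times that of Adcy6 there and 31.7 and 30.1 times with carfilzomib. The Gnas locus is imprinted and gives several transcripts and an antisense RNA, and how reads were assigned to a strand is not given, so the value sums what was counted under 1 gene.

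Of 19 other G protein subunit genes 6 fell, 4 rose and 9 missed the threshold (median -0.11). Gnao1, an inhibitory type alpha subunit, fell from 135 ± 2.46 to 60.9 ± 1.25 CPM, a log2 fold change of -1.15. Gna13, an alpha subunit of the G12 family, had 0.36 with an edgeR adjusted p of 0.0161, and 0.19 without vehicle replicate 2, where its adjusted p was 0.169. Over all alternatives that p lay between 0.00267 and 0.169. With vehicle replicate 2 omitted edgeR called 0 rises in this list, with 2 at an unadjusted p under 0.05, and with carfilzomib replicate 2 omitted 0, with 1.

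Both cardiac cyclases fell. The log2 fold change of Adcy5 was the lower of the pair, a difference that was not tested. Adcy5 (gene ID 64532) was at 63.2 and 63.2 CPM with vehicle and at 40.6 and 40.4 CPM with carfilzomib. The libraries of each group nearly coincided, and the log2 fold change was -0.64 ± 0.06 (SE), at an edgeR adjusted p of 2.94e-07. Adcy6 (gene ID 25289) was at 140 and 132 CPM with vehicle and at 109 and 113 CPM with carfilzomib. Its groups did not overlap either, and its log2 fold change was -0.29 ± 0.05 (SE), at an edgeR adjusted p of 9.20e-05. The estimated counts of both genes carry decimals (called split reads below), so some of their reads may have been shared out between similar genes.

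The FPKM ratio of Adcy5 to Adcy6 was 0.526 and 0.554 with vehicle and 0.426 and 0.407 with carfilzomib. The order of the pair was the same in all 4 libraries, with Adcy6 the more abundant. Over all 10 adenylyl cyclase genes the summed FPKM was 56 and 54.17 with vehicle and 52.72 and 53.51 with carfilzomib. Adcy6 made up 42.3% and 41.4% of it with vehicle and 35.8% and 36.5% with carfilzomib. The share of Adcy5 was 22.2% and 22.9% with vehicle and 15.3% and 14.8% with carfilzomib. The sum thus differed less between the groups than the shares of either gene.

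Of the 8 other cyclases 7 were tested, 2 rose, 2 fell and 3 missed the threshold (median -0.03). Adcy3, a cyclase best known from olfactory neurons, rose from 17.4 ± 1.73 to 40.8 ± 0.0125 CPM, a log2 fold change of 1.23 ± 0.08 (SE) with an edgeR adjusted p of 3.06e-09. Its share of the summed cyclase FPKM was 7.59% and 6.85% with vehicle and 18.3% and 18% with carfilzomib, above that of Adcy5 in the treated libraries and below it in the vehicle ones. Adcy1, a calmodulin-stimulated cyclase chosen after its values were seen, had split reads and was at 9.05 and 6.77 CPM with vehicle and 0.943 and 1.06 CPM with carfilzomib. Without vehicle replicate 2, carfilzomib replicate 1 or carfilzomib replicate 2 the number that rose was 1, and without any 1 of the 4 libraries the number that fell was 1.

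**Figure D2:**
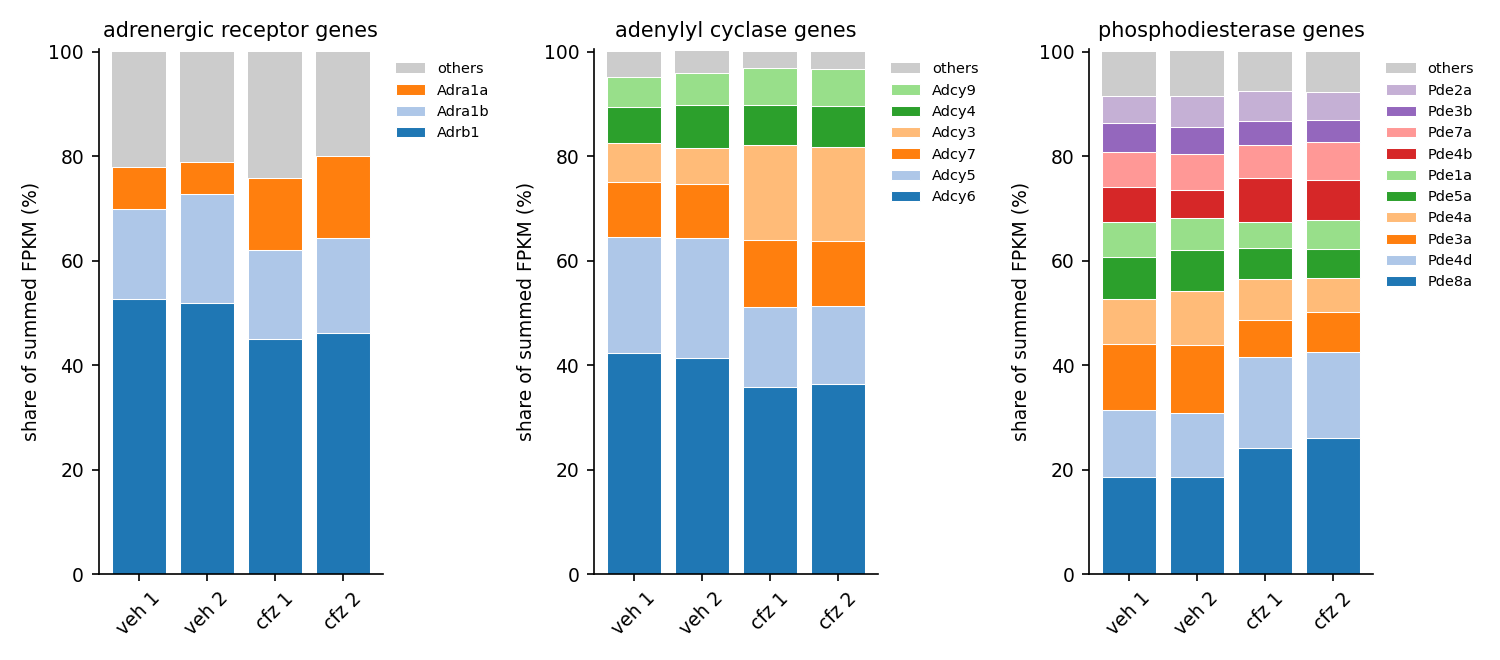
Share of the summed FPKM (vertical axes, percent) that each gene took in each library, for the adrenergic receptors, adenylyl cyclases and phosphodiesterases. Genes under 5% in all 4 libraries, and every receptor gene but Adrb1, Adra1a and Adra1b, are pooled as others. Adcy3 takes 18.3% and 18% with carfilzomib (cfz) against 7.59% and 6.85% with vehicle (veh), and Pde3a 7% and 7.56% against 12.6% and 13%.

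The 3 phosphodiesterases did not move together: Pde3a and Pde5a fell and Pde4d rose. Pde3a (gene ID 50678), which hydrolyses cyclic AMP, is inhibited by cyclic GMP and is the target of milrinone, was at 50.2 and 50.3 CPM with vehicle and at 26.4 and 27.8 CPM with carfilzomib. The fall from 50.3 ± 0.10 to 27.1 ± 0.989 CPM (SD, n = 2) was 1.85-fold and the largest among the 9 genes. The log2 fold change was -0.89 ± 0.06 (SE), at an edgeR adjusted p of 1.03e-08, and 9.43% of tested genes had a lower one. Pde3a also has split reads.

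Pde4d (gene ID 24627), a cyclic AMP-specific enzyme known to sit beside the ryanodine receptor and beta receptors, was at 44.2 and 42.5 CPM with vehicle. With carfilzomib it was at 57.3 and 54.1 CPM, both above the vehicle libraries. The log2 fold change was 0.36 ± 0.06 (SE), at an edgeR adjusted p of 1.44e-04. Its estimated counts were whole in all 4 libraries.

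Pde5a (gene ID 171115), the cyclic GMP-specific enzyme that sildenafil inhibits, was at 29.9 and 28.3 CPM with vehicle and at 20.9 and 19.2 CPM with carfilzomib. Both treated libraries were lower without overlap, and the log2 fold change was -0.54 ± 0.08 (SE), at an edgeR adjusted p of 2.46e-05.

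Per length, Pde3a and Pde4d were level with vehicle and apart with carfilzomib. Their FPKM ratio, Pde3a to Pde4d, was 0.994 and 1.07 in the vehicle libraries and 0.4 and 0.458 in the treated ones. The ratio of Pde5a to Pde4d was 0.623 and 0.633 with vehicle and 0.34 and 0.333 with carfilzomib. Over 18 genes of cyclic nucleotide phosphodiesterases the summed FPKM overlapped between the groups, at 62.19 and 59.32 with vehicle and 58.82 and 59.62 with carfilzomib. Pde3a took 12.6% and 13% of that sum with vehicle and 7% and 7.56% with carfilzomib. Pde4d took 12.7% and 12.2% with vehicle and 17.5% and 16.5% with carfilzomib.

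Of the 16 other genes in the phosphodiesterase list 13 were tested, 4 fell, 2 rose and 7 missed the threshold (median -0.14). Pde4a, of the same subfamily as Pde4d, fell with a log2 fold change of -0.48, and Pde8a, a high-affinity cyclic AMP enzyme, rose with 0.34. Per length Pde8a was the most abundant gene of the family in each library, at 18.7% and 18.6% of the sum with vehicle and 24.1% and 26.1% with carfilzomib. Among the 4 that fell was Pde6d, a prenyl-binding chaperone and no enzyme, which the sums leave out. The number that fell was 2 without vehicle replicate 1 or carfilzomib replicate 2, and the number that rose was 1 without vehicle replicate 2 or carfilzomib replicate 1.

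**Figure D3:**
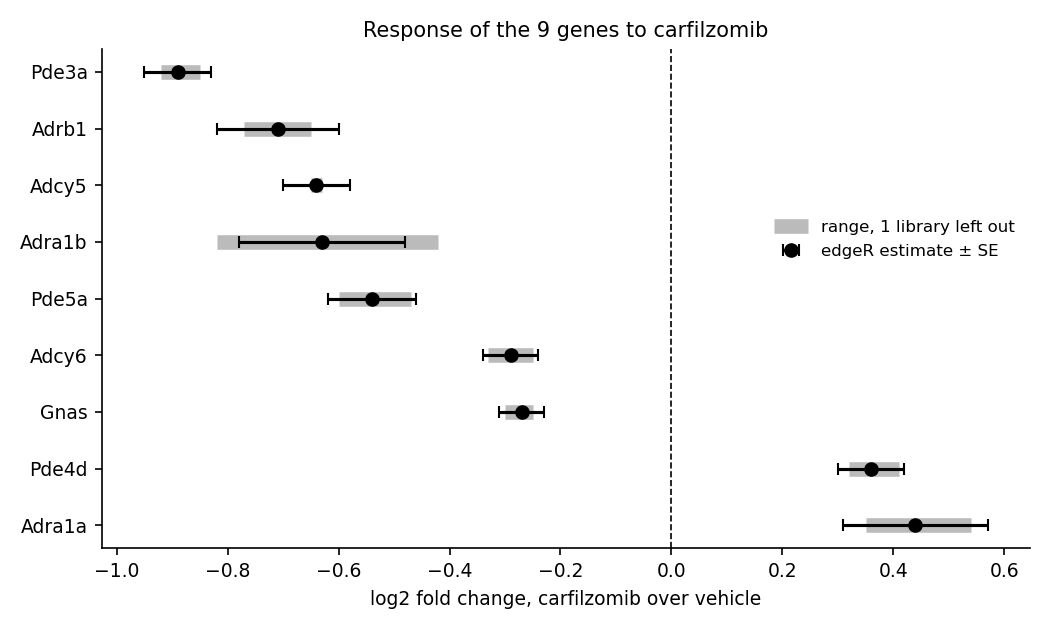
Log2 fold change, carfilzomib over vehicle, of the 9 genes (points, edgeR; bars, SE), with the range of estimates when 1 library was left out in grey. Values run from -0.89 for Pde3a to 0.44 for Adra1a, and the grey range of Adra1b, from -0.82 to -0.42, is the widest.

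The order of the 9 genes per length differed between the groups in the place of Pde4d. With vehicle the mean FPKM ran from Gnas at 701 ± 15.6 through Adcy6 at 23 ± 0.905, Adcy5 at 12.4 ± 0.0424, Adrb1 at 10.5 ± 0.488 and Pde3a at 7.79 ± 0.0849 (SD, n = 2). It went on with Pde4d at 7.56 ± 0.481, Pde5a at 4.75 ± 0.247, Adra1b at 3.84 ± 0.757 and Adra1a at 1.43 ± 0.198. Pde3a and Pde4d overlapped there, and the other neighbours did not. With carfilzomib Pde4d moved to place 3, at 10.1 ± 0.325 FPKM, behind Gnas at 594 ± 7.93 and Adcy6 at 19.2 ± 0.438. Adcy5 at 8 ± 0.0778, Adrb1 at 6.56 ± 0.368, Pde3a at 4.31 ± 0.276 and Pde5a at 3.39 ± 0.163 FPKM followed. Adra1b at 2.54 ± 0.0566 and Adra1a at 2.12 ± 0.0354 FPKM closed the order, and no neighbours overlapped.

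The authors' deposited table of their DESeq2 comparison lists 7 of the 9 genes among 6063 genes with a q-value up to 0.0499. In the authors' deposited table Pde3a has a log2 fold change of -0.89, Adrb1 -0.71 and Pde4d 0.37. Adra1a and Adra1b are not listed there.

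Genes with the profile most like that of Pde3a, the largest fall, were Svil, Gja3 and Etv5, with log2 fold changes of -0.89, -0.92 and -0.89. Those most like Adra1a, the largest rise, were Erbin, Acap2 and Slc35a3, with 0.41, 0.40 and 0.44. Likeness was the Euclidean distance between centred log2 CPM over the 4 libraries, which was 0.0051 to 0.022 for the first 3 and 0.023 to 0.024 for the others.

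In all, 11 lists with 136 other genes of the pathway were counted, the 4 families above included. Of 129 tested, 64 fell, 28 rose and 37 missed the threshold (median -0.19). Over all tested genes 30.1% fell and 30.6% rose, the shares that belong beside every list count in this text. Leaving out vehicle replicate 2 gave 18 that rose, and so did leaving out carfilzomib replicate 2. Among receptor kinases, arrestins and regulators of G protein signalling, 7 of 12 fell, 3 rose and 2 missed the threshold (median -0.34). Rgs6, which speeds the switching off of inhibitory G proteins in the heart, fell from 12.2 ± 0.644 to 2.48 ± 0.0557 CPM, a log2 fold change of -2.30. Arrb1, beta-arrestin 1, which uncouples phosphorylated receptors, rose from 80.1 ± 2.62 to 119 ± 1.44 CPM, with 0.57.

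Of 13 cyclic AMP effectors, protein kinase A subunits and inhibitors 8 fell, 2 rose and 3 missed the threshold (median -0.61). Pkig, an inhibitor of protein kinase A, fell from 135 ± 6.96 to 66.8 ± 2 CPM, a log2 fold change of -1.01. Prkar1b, a regulatory subunit, had 0.39 with an edgeR adjusted p of 0.0245. Its call was lost under DESeq2, with an adjusted p of 0.21, and without vehicle replicate 1, vehicle replicate 2 or carfilzomib replicate 2, with edgeR adjusted p of 0.061, 0.106 and 0.264. The number that rose was then 1 in each case. The catalytic subunit gene Prkaca, chosen after its values were seen, had a log2 fold change of -0.61.

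In the list of A-kinase anchoring proteins, which hold the kinase near its targets, 7 of 14 rose, 5 fell and 2 missed the threshold (median 0.10). Akap6, which anchors the kinase at the nuclear envelope together with Pde4d, rose from 59.1 ± 0.25 to 86.7 ± 0.309 CPM, a log2 fold change of 0.55. Cmya5, an anchoring protein of muscle, fell from 19.2 ± 2.99 to 7.83 ± 0.469 CPM, with -1.29. One of those that rose, Mypn, encodes a Z-disc protein and not a known anchoring protein.

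Of 10 targets of protein kinase A in contraction 9 fell and 1 missed the threshold (median -0.66). This list shares 3 genes, Tnni3, Ryr2 and Pln, with the cardiomyocyte markers, and of the other 7 targets 6 fell (median -0.39). Tnni3, cardiac troponin I, with split reads, was at 434 and 428 CPM with vehicle and at 49.8 and 45.2 CPM with carfilzomib. Of 14 CREB factors and genes that respond to CREB 5 rose, 5 fell and 4 missed the threshold (median 0.00). The 5 that fell, Fos, Nr4a1, Nr4a2, Sik1 and Ppargc1a, were all listed as responsive genes and not as factors. Of those that rose, Crem, Atf1 and Crtc1 were listed as factors and Per1 and Dusp1 as responsive genes. Nr4a1, an immediate early nuclear receptor, fell from 15.6 ± 0.589 to 5.95 ± 1.52 CPM, a log2 fold change of -1.39. Per1, a clock gene, rose from 26.7 ± 0.097 to 45.3 ± 1.29 CPM, with 0.76. The number that rose in that list was 3 without carfilzomib replicate 2.

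On the alpha-1 route 10 of 14 genes fell, 1 rose and 3 missed the threshold (median -0.42). Prkd1, protein kinase D1, with split reads, fell from 16.6 ± 1.13 to 7.46 ± 0.467 CPM, a log2 fold change of -1.15. Itpr3, an inositol trisphosphate receptor, rose from 59.4 ± 4.68 to 97.7 ± 7.38 CPM, with 0.72. On the cyclic GMP route, which Pde5a limits, 9 of 10 genes were tested, 6 fell, 2 rose and 1 missed the threshold (median -0.32). Gucy1b1, a subunit of the nitric oxide receptor, fell from 30.6 ± 1.04 to 20.5 ± 0.328 CPM, with -0.57, and Npr1, the natriuretic peptide receptor that makes cyclic GMP, rose from 26.6 ± 1.05 to 42.9 ± 0.103 CPM, with 0.69. The number that fell there was 3 without vehicle replicate 1, and the number that rose was 1 without vehicle replicate 2 or carfilzomib replicate 1.

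**Figure D4:**
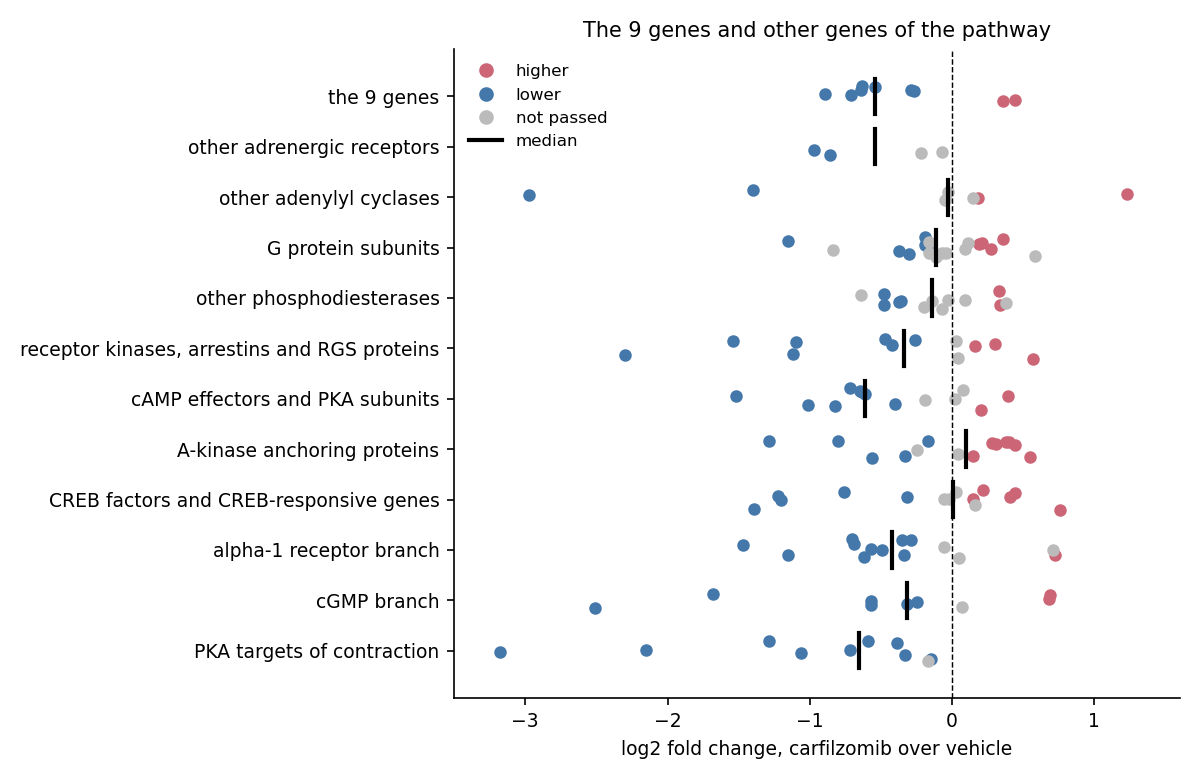
Log2 fold change, carfilzomib over vehicle (horizontal axis), of the 9 genes and of each tested gene in the 11 lists, in red where higher, blue where lower and grey where not passed, with a bar at the median of each list. Medians run from -0.66 for the contraction targets of protein kinase A to 0.10 for the anchoring proteins, and Tnni3 at -3.18 is the lowest point.

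Markers of several cell types moved in the same libraries. All 10 cardiomyocyte markers fell, with a summed level of 17604 and 17075 CPM with vehicle and 5085 and 4844 CPM with carfilzomib. All 9 fibroblast markers fell, from summed levels of 27931 and 28505 CPM to 15720 and 14999 CPM. Of 9 smooth muscle and pericyte markers 8 fell and 1 missed the threshold, with sums going from 4167 and 4321 CPM to 1564 and 1529 CPM. Of 8 endothelial markers 2 rose and 2 fell, with sums of 88 and 88.6 CPM against 95.1 and 92 CPM. Of 8 macrophage markers 5 were tested, 4 fell and 1 rose, with sums of 54.2 and 56.6 CPM against 47 and 42.4 CPM. The 1 that rose was Cd14, from 15.6 ± 0.518 to 23 ± 2.54 CPM. No marker was at 0 in all 4 libraries. Cd163, which was not tested, had 1 count in each vehicle library and 0 in both carfilzomib libraries. The median log2 fold change was -1.19 for the cardiomyocyte list, -1.09 for the tested macrophage markers, -0.96 for the smooth muscle and pericyte list, -0.79 for the fibroblast list and -0.27 for the endothelial list, beside -0.54 for the 9 genes. The part of these marker changes in the values of the 9 genes was not tested.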

How the data were processed

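RNA-seq values of 4 libraries were used, 2 per group, with groups and replicate numbers from the sample titles. Columns named as control were matched to vehicle by replicate number. Per the file headers, the authors deposited raw estimated counts and FPKM. Decimals (more than 1e-06 from a whole number) occur in 35.1% of genes in at least 1 library, called split reads here, and their source is not given. Per the file headers, their deposited comparison gives log2 fold change, p-value and q-value. The submitters' processing notes name HISAT, Bowtie2, featureCounts 1.6.0 and DESeq2 (R 3.3.2), besides cutadapt 2.0 and FastQC 0.11.8, on build Rnor_6.0, without roles. A further 10 columns (TPM and group averages) were left unused.

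Counts were rounded and tested over the whole table with edgeR 4.0.16 (filterByExpr, minimum count 10 and total 15; TMM; robust quasi-likelihood F test; Benjamini-Hochberg at 0.05) in R 4.3.3. This left 14519 genes with 2 residual degrees of freedom. SE is the absolute log2 fold change over the square root of F. The replicates of each group differed beyond sampling noise (chi-square over degrees of freedom 3.42 and 3.08). The script was tested on simulated data.

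Named pathway genes are the largest called rise and fall of each list with a mean of at least 5 CPM, and like genes need at least 10 CPM and a full symbol. The 9 genes and all lists were chosen with earlier results of these data known. Alternatives were DESeq2 1.42.0, limma-voom (limma 3.58.1), RLE scaling, no scaling, no filter, a stricter filter (1 CPM in 2 libraries, total 50), a replicate block, each library left out, limma on log2(FPKM + 0.1) for genes with a mean FPKM of at least 0.1, and whole counts only.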

Additional observations from a re-analysis of the deposited data

How the results depend on the processing

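Over all alternatives the 9 genes kept their direction, and 104 of 108 refitted values stayed on the same side of the threshold. The exceptions were Adra1a under DESeq2 (0.44, adjusted p 0.147), without vehicle replicate 2 and without carfilzomib replicate 2, and Adra1b without vehicle replicate 2. With 1 library left out, the log2 fold change of Adra1a ranged from 0.35 to 0.54 and that of Adra1b from -0.82 to -0.42. The number of the 9 genes that rose was 1 under DESeq2 and 1 to 2 with 1 library left out, and the number that fell was 4 among the 6 genes with whole counts, a set with fewer genes. Where a library was left out, the single library of its group was assumed to vary like the others. Of the 129 other pathway genes tested, 16 rose under DESeq2 and 18 to 26 with 1 library left out. Whether the replicate numbers pair the libraries is not stated. Deviations of same-numbered libraries from their group means had a correlation of -0.00232 over genes. With so few libraries this value cannot exclude pairing. With a replicate block all 9 calls held, and calls over all genes were 4146 higher and 4083 lower against 4444 and 4368. For single lists, counts under DESeq2 against edgeR were 0 against 2 lower for the other receptors, 1 against 2 higher and 1 against 2 lower for the other cyclases, 1 against 4 higher for G proteins, 1 against 2 higher and 2 against 4 lower for the other phosphodiesterases, 1 against 2 higher for the cyclic AMP effectors, 3 against 5 higher for CREB genes, and 1 against 2 higher and 3 against 6 lower for the cyclic GMP route. The other cyclases had 1 lower also without the low-count filter, with the stricter one and with the replicate block. The 3 receptor genes had 107 to 275 counts per library.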
